A study of Mus musculus with 4 samples.

Results

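The genes described here are 33 regulators and working parts of G2 and mitosis, chosen by symbol from a fixed list of mitotic cyclins, kinases, kinesins, centromere proteins and their transcription factors. All 33 matched 1 Ensembl identifier each, out of 53379 in the count files, and all 33 passed the low-count filter, with 334 to 26193 reads per gene and library. RNA was sequenced in bulk from MC38 cells, a mouse colon adenocarcinoma line carrying GFP, that had been sorted from subcutaneous tumors of C57BL/6 mice. Each mouse had received 50000 cells and then 4 doses of 100 µg anti-PD-1 on days 12, 15, 18 and 22, a course called sub-optimal in the labels. There were 2 libraries from tumors labelled responder and 2 from tumors labelled non-responder. Both groups were treated, so no library shows the untreated state. Neither the scoring of response nor the number of mice behind each library is given in the labels. The spread between replicates may thus be technical, and p-values cover that spread alone.

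Entry into mitosis is driven by cyclin-dependent kinase 1 with cyclins A and B, and it ends when the anaphase-promoting complex tags those cyclins and other proteins for destruction. Between these steps, polo-like and aurora kinases build the spindle, kinetochores tie chromosomes to microtubules, checkpoint kinases hold back anaphase, and kinesins with their partners move chromosomes and place the cleavage furrow. The genes for these proteins are transcribed late in the cell cycle, largely under B-MYB and FOXM1, and their summed level in a bulk sample is commonly read as a sign of proliferation. In bulk RNA, fewer cycling cells and less RNA per cycling cell cannot be told apart.

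Mitotic genes as a group did not separate responder from non-responder tumor cells. Summed over the 33 genes, expression was 5061 and 5959 CPM (read counts scaled to library size with TMM factors) in responder replicates 1 and 2, against 5582 and 4683 CPM in non-responder replicates 1 and 2. The groups overlapped, with responder replicate 2 highest and non-responder replicate 2 lowest. The group means were 5510 ± 635 CPM in responder and 5133 ± 636 CPM in non-responder libraries (SD, n = 2 each). By edgeR's quasi-likelihood test with Benjamini-Hochberg adjustment over 13792 genes, 0 of the 33 genes passed an adjusted p of 0.05, as did 0% of all genes tested. At an unadjusted p under 0.05 there was 1 gene, Mybl2, which was higher in responder cells, where 2.57% of all tested genes had such a p and were higher, 3.63% had one and were lower, and 6.21% had one in either direction. DESeq2 called 0 of the 33 at an adjusted p of 0.05 and 0.45% of all genes, and 2 of the 33, Mybl2 and Anln, had an unadjusted p under 0.05 with it, as did 5.34% of all genes.

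Of the 33 genes, 26 had a log2 fold change above 0 in responder cells, or 78.8%, against 48.9% of all genes tested. The median log2 fold change was 0.11 over the 33 genes and -0.01 over all genes tested. Responder and non-responder libraries did not overlap for 4 of the 33, while 36.5% of all genes tested had groups that did not overlap. In 3 of these (Mybl2, Foxm1 and Anln) both responder libraries were above both non-responder libraries, as they were for 18.8% of all genes tested, and in 1 (Bub1b) they were below, as they were for 17.8%. Without responder replicate 2, the median was -0.02 and 13 of 33 genes were higher. Without non-responder replicate 2, the median was 0.06 with 20 of 33 higher. Leaving out responder replicate 1 gave a median of 0.28, and leaving out non-responder replicate 1 gave 0.24.

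**Figure D1:**
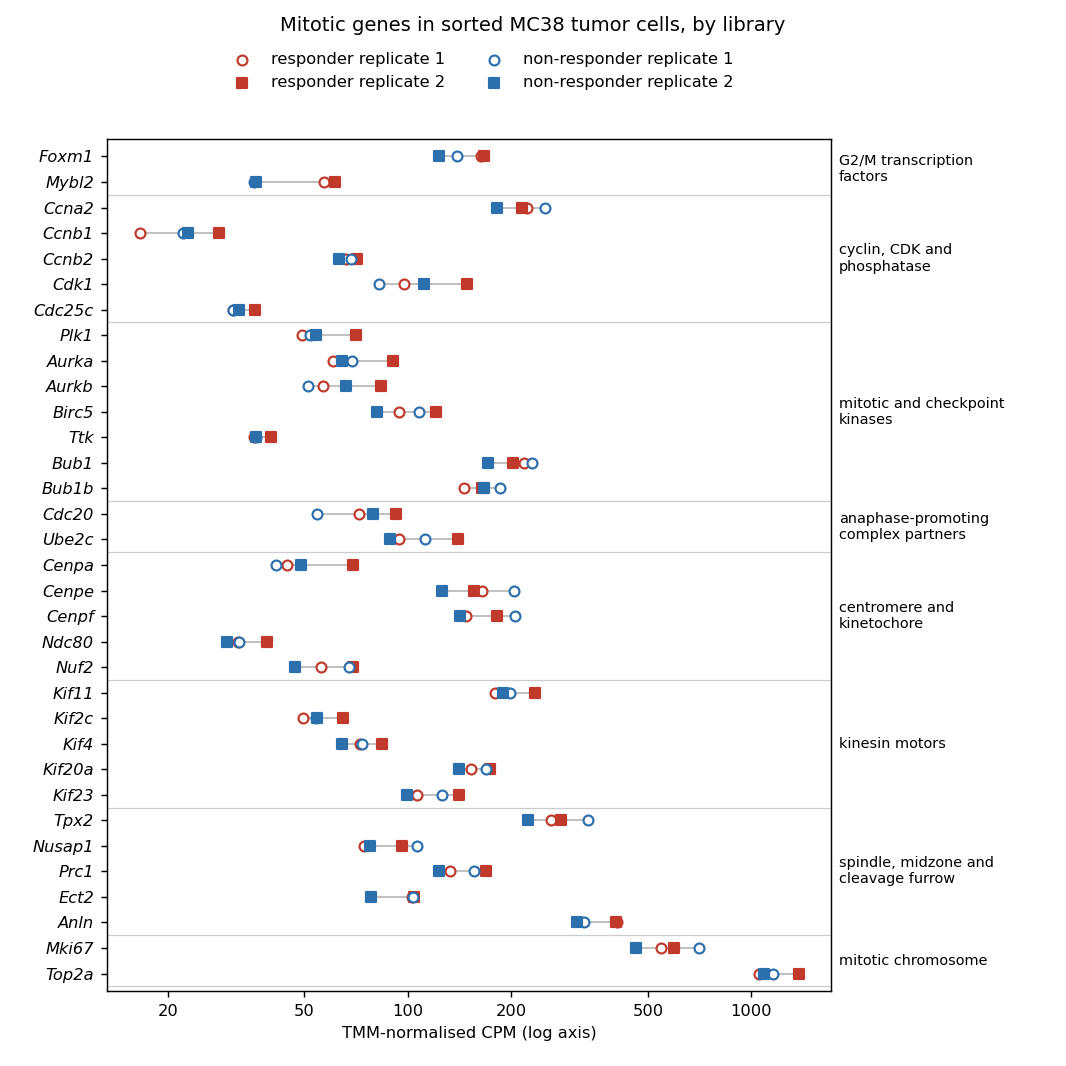
TMM-normalised CPM of each of the 33 genes on a log axis, with 1 point per library (responder in red, non-responder in blue, replicate 1 as open circles, replicate 2 as filled squares) and a grey line over the range. Red and blue points separate for Mybl2, Foxm1, Anln and Bub1b, and the filled red square is the highest point for 24 of 33 genes.

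Both transcription factor genes had groups that did not overlap. Mybl2 encodes B-MYB, which activates late cell-cycle genes as part of the MuvB complex. It had 57.2 and 61.5 CPM in responder replicates 1 and 2, against 35.7 and 36.1 CPM in non-responder replicates 1 and 2. Replicates lay close together and the groups were well apart. Its log2 fold change was 0.73 (SE 0.16, 1.65-fold higher in responder cells) with an unadjusted p of 0.00209, rank 58 of 13792, and an edgeR adjusted p = 0.455. The fold change lay between 0.67 and 0.77 in the fits that left out 1 library each. The adjusted p was 0.0805 with DESeq2, and over all alternatives it ran between 0.038 (edgeR without non-responder replicate 2) and 0.721 (edgeR without responder replicate 2).

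Foxm1, the forkhead factor that takes over at the same promoters in G2, had 164 and 166 CPM in responder libraries and 139 and 123 CPM in non-responder libraries. Its log2 fold change was 0.33 (SE 0.18, edgeR adjusted p = 0.818), with the non-responder libraries the more spread. On mm10, Mybl2 (ENSMUSG00000017861) spans chromosome 2 from 163054687 to 163084688 on the forward strand, and Foxm1 (ENSMUSG00000001517) chromosome 6 from 128362967 to 128376146 on the forward strand. Counts were taken over annotated exons. A processed pseudogene, Gm3320, is 99.73% identical to Mybl2 over 742 bases, and reads that fit both places equally well are not in these counts.

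The promoters of the group share short sequences known from late cell-cycle genes. The genes were chosen by symbol as genes of this kind, so high shares are not independent of the choice. Late cell-cycle promoters often carry a cell-cycle genes homology region, or CHR, a short element bound by the MuvB complex, near CCAAT boxes bound by NF-Y. RefSeq promoter windows on GRCm38, running from 250 bases before to 50 bases after the annotated start, were found for 27 of the 33 genes. The windows of these 27 are described here; not analysed here were Aurkb, Ccna2, Cdc25c, Foxm1, Kif20a and Tpx2. The letters TTTGAA or TTTAAA on either strand, taken as CHR, were in a window of 23 of 27 genes (85.2%), against 30.6% of all 27025 genes with windows. CCAAT on either strand was in 20 of 27 (74.1%), against 41.1% of all. Among other lists, CHR letters were in 57.8% of 64 further G2 and mitosis genes and 27.3% of 33 S phase genes, and CCAAT in 73.4% and 57.6%. Both were present in 19 of 27 (70.4%), against 12.2% of all, and in no window of these genes did CHR and CCAAT letters overlap.

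CHR letters also stood close to the start: 20 of 27 genes (74.1%) had them within 50 bases of it, against 9.44% of all genes. CCAAT boxes lay 31 to 33 bases apart in 5 of 27 genes (18.5%), namely Aurka, Ccnb1, Ccnb2, Cdk1 and Ube2c, against 1.11% of all. The spacing and the distance to the start were examined after the matches were seen, so these shares are descriptions and not tests. E2F letters (TTTCCCGC, TTTGGCGC or TTTCGCGC on either strand) were in 1 of 27 genes, Cdk1, or 3.70%, and in 13 of 33 genes of a list of S phase and replication genes, or 39.4%, against 2.12% of all. Only these exact letters were searched, so other forms of an E2F site were missed, and a gene without a match may still have one. A match in letters is a description of the window and not a mapped binding site. Mybl2, Bub1, Nuf2 and Nusap1 had no CHR letters in the window.

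Printed here are 120 bases before and 30 bases from the start for Mybl2, the gene of smallest p, and for 5 genes with CHR letters within 50 bases of the start and CCAAT letters in the window: the kinase and cyclin of mitotic entry, a checkpoint kinase, the activator of anaphase and topoisomerase II. Capitals mark CHR letters (TTTGAA, or TTCAAA on the other strand) and CCAAT letters (ATTGG on the other strand), and each runs 5′ to 3′ on the gene's own strand. The Mybl2 stretch has none of them and no capitals.
Mybl2: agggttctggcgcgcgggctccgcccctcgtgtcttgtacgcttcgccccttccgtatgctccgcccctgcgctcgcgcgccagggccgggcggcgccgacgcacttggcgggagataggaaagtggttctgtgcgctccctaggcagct
Cdk1: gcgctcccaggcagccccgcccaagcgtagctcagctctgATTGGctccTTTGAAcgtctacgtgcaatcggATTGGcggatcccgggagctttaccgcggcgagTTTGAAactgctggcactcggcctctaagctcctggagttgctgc
Ccnb2: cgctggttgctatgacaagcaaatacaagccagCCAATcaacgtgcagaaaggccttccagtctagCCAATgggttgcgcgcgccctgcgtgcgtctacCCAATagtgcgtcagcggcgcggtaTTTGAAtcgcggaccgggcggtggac
Ttk: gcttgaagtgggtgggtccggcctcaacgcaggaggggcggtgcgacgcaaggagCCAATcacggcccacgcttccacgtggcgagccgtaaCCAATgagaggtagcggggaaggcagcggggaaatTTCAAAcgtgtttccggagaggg
Cdc20: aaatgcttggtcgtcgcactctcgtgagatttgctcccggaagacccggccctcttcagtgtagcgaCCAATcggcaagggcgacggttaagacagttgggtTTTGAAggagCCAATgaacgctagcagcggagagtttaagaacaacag
Top2a: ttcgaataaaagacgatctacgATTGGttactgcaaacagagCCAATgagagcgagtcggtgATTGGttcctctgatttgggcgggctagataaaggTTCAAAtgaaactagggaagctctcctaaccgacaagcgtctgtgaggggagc
On GRCm38 these are Mybl2 at chr2:163054515-163054664 (forward strand), Cdk1 at chr10:69352883-69353032 (reverse), Ccnb2 at chr9:70421525-70421674 (reverse), Ttk at chr9:83834569-83834718 (forward), Cdc20 at chr4:118437314-118437463 (reverse) and Top2a at chr11:99024160-99024309 (reverse). The Ccnb2 stretch shows CCAAT boxes at -87, -54 and -21 followed by TTTGAA at 4, counting the start as 0. In Cdc20 the order is CCAAT at -53, TTTGAA at -18 and CCAAT at -8.

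**Figure D2:**
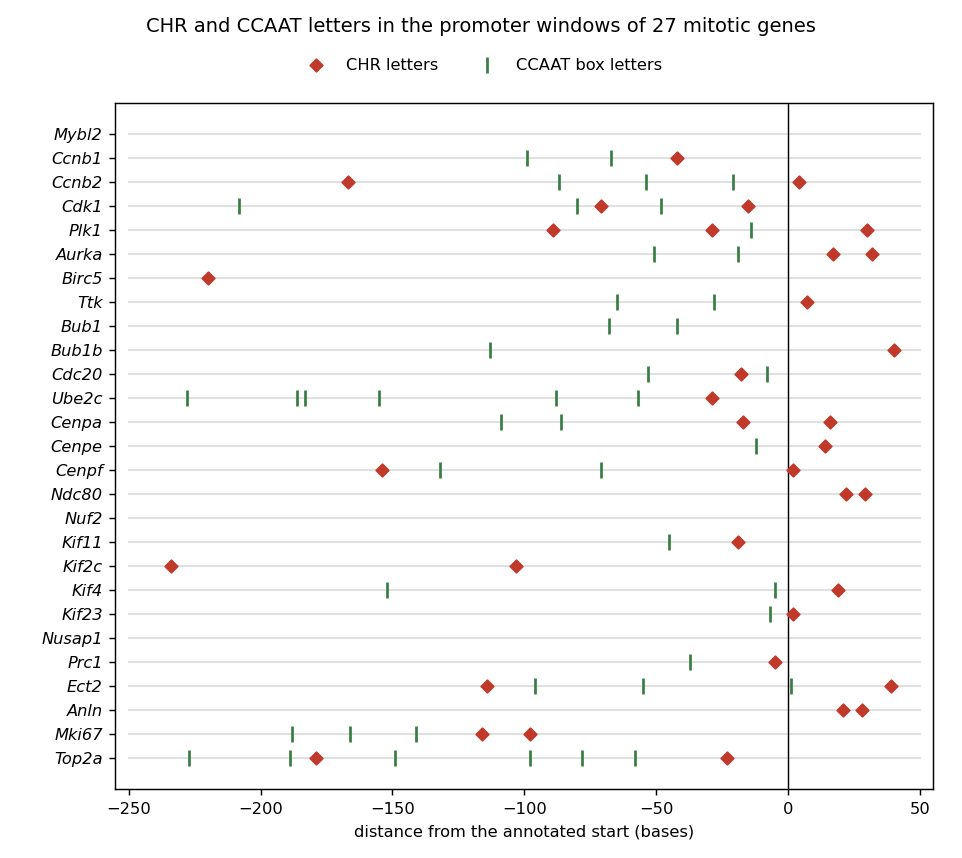
Distance in bases from the annotated start (vertical line at 0) of CHR letters (red diamonds) and CCAAT letters (green bars) in the promoter window of each of 27 genes. Red diamonds gather within 50 bases of the start in 20 of 27 genes, and Mybl2, Nuf2 and Nusap1 have neither mark.

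In each of the 5 genes of mitotic entry, the larger of the replicate differences exceeded the difference between groups. Cdk1, the master kinase of mitosis, had 97.3 and 148 CPM in responder libraries and 82.6 and 112 CPM in non-responder libraries (log2 fold change 0.34, SE 0.25, edgeR adjusted p = 0.864). Replicate 2 was the higher in both groups, 1.52-fold in responder and 1.35-fold in non-responder cells, and the groups overlapped. Ccnb1, which encodes cyclin B1, had 16.6 and 28.2 CPM in responder libraries, against 22.2 and 22.9 CPM in non-responder libraries, so that the responder libraries bracketed the others (log2 fold change -0.01, SE 0.27).

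Ccna2, the cyclin A2 gene, had 222 and 214 CPM in responder libraries, against 251 and 182 CPM in non-responder libraries, here with the non-responder libraries outermost (log2 fold change 0.01, SE 0.21). Ccnb2 (cyclin B2) and Cdc25c, the phosphatase that activates Cdk1, were the steadiest of the entry genes. Ccnb2 had 65.9 and 71.3 CPM in responder libraries, against 68.2 and 63.1 CPM in non-responder libraries. Cdc25c had 30.98 and 35.9 CPM, against 30.96 and 32.2 CPM. Their log2 fold changes were 0.06 (SE 0.16) and 0.08 (SE 0.18).

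The aurora and polo-like kinase genes were highest in responder replicate 2. Aurkb, the kinase of the chromosomal passenger complex, which corrects faulty attachments, had 56.6 and 83.5 CPM in responder libraries and 51.1 and 66.1 CPM in non-responder libraries (log2 fold change 0.26, SE 0.23, edgeR adjusted p = 0.888). Its partner Birc5 (survivin) had 94.5 and 121 CPM, against 107 and 81.3 CPM. Responder replicate 2 was the top library for each, and the groups overlapped. Aurka, the spindle-pole aurora kinase, had 60.6 and 90.5 CPM in responder libraries, against 68.6 and 64.1 CPM in non-responder libraries. Plk1, the polo-like kinase of spindle assembly and mitotic exit, had 49.1 and 70.6 CPM, against 51.9 and 54.1 CPM. In Aurka and Plk1 responder replicate 1 was the lowest of the 4 libraries and responder replicate 2 the highest, so their log2 fold changes of 0.19 and 0.18 rest on 1 library and were -0.13 and -0.11 without it.

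Of the spindle checkpoint genes, Bub1b encodes BubR1, an inhibitor of the anaphase-promoting complex. It had 146 and 164 CPM in responder libraries, against 185 and 166 CPM in non-responder libraries, and was the only one of the 33 with both responder libraries below (log2 fold change -0.18, SE 0.18, edgeR adjusted p = 0.898). The gap between responder replicate 2 and non-responder replicate 2 was small beside the spread within each group. Bub1, a kinetochore checkpoint kinase, had 217 and 203 CPM in responder libraries, against 230 and 171 CPM in non-responder libraries. Ttk, the kinase that starts checkpoint signalling, had 35.7 and 39.998 CPM, against 36.1 and 36.1 CPM. As for Aurka and Plk1, its lowest library was responder replicate 1 and its highest responder replicate 2, and its log2 fold change of 0.07 was -0.01 without the last.

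Of the genes that work with the anaphase-promoting complex, Cdc20, its mitotic activator, had 71.9 and 92.1 CPM in responder libraries and 54.5 and 79.3 CPM in non-responder libraries (log2 fold change 0.29, SE 0.23, edgeR adjusted p = 0.869). Replicate 2 was again the higher in each group. Ube2c, the ubiquitin-conjugating enzyme of the complex, had 94.5 and 140 CPM, against 112 and 88.5 CPM, with the groups overlapping (log2 fold change 0.23, SE 0.23).

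Each centromere and kinetochore gene was highest in responder replicate 2 or in non-responder replicate 1. Nuf2 and Cenpf were higher in both of these libraries than in the others. Cenpa, the histone H3 variant that marks centromeres, had 44.5 and 69.1 CPM in responder libraries and 41.2 and 48.8 CPM in non-responder libraries (log2 fold change 0.34, SE 0.23, edgeR adjusted p = 0.858). Without responder replicate 2 that value was -0.01. Cenpe, a kinetochore kinesin, had 165 and 156 CPM in responder libraries, against 203 and 125 CPM in non-responder libraries. The responder libraries were close together and the non-responder libraries lay 1.62-fold apart, the widest gap between non-responder replicates among the 33. Cenpf, a large kinetochore protein, had 148 and 181 CPM, against 205 and 142 CPM. Ndc80 and Nuf2 encode subunits of the complex that grips microtubules. Ndc80 had 32.1 and 39.0 CPM in responder libraries, against 32.2 and 29.7 CPM in non-responder libraries, and Nuf2 had 55.8 and 69.3 CPM, against 67.2 and 46.9 CPM. The log2 fold changes of Ndc80 and Nuf2 were 0.20 (SE 0.18) and 0.13 (SE 0.22).

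The 5 genes listed here as kinesin motors had small log2 fold changes above 0, between 0.07 and 0.19. None exceeded the larger of the differences between replicates of a group. Cenpe, the kinetochore kinesin described above, had a log2 fold change of -0.03. Kif4, a chromosome-bound kinesin, had 72.4 and 84.3 CPM in responder libraries and 73.3 and 64.2 CPM in non-responder libraries (log2 fold change 0.19, SE 0.17, edgeR adjusted p = 0.89). Kif11, the motor that separates spindle poles, had 179 and 234 CPM, against 198 and 189 CPM. Kif2c, a microtubule depolymerase at centromeres, had 49.5 and 64.7 CPM, against 54.1 and 54.4 CPM. In each of these, responder replicate 2 was the highest library. Kif20a and Kif23, motors of the midzone and of cytokinesis, had 153 and 174 CPM and 107 and 141 CPM in responder libraries, against 169 and 141 CPM and 126 and 99.2 CPM in non-responder libraries. Without responder replicate 2, the fold changes of Kif11, Kif2c, Kif20a and Kif23 were below 0.

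Among spindle and cleavage furrow genes, Anln stood apart. It encodes anillin, the scaffold of the contractile ring, and had 407 and 403 CPM in responder libraries, against 325 and 310 CPM in non-responder libraries. Replicates differed by little in either group. The log2 fold change was 0.35 (SE 0.19, 1.28-fold higher in responder cells, edgeR adjusted p = 0.816), and between 0.32 and 0.39 with 1 library left out. Anln (ENSMUSG00000036777) spans chromosome 9 from 22332012 to 22389188 on mm10, on the reverse strand. Ect2, which activates the RhoA GTPase under the ring, had 103 and 104 CPM in responder libraries, against 104 and 77.9 CPM in non-responder libraries, so only non-responder replicate 2 was low.

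Tpx2, the activator of Aurora A on the spindle, had 261 and 278 CPM in responder libraries, against 336 and 224 CPM in non-responder libraries, which lay on either side. Nusap1, a spindle microtubule stabiliser, had 74.6 and 95.9 CPM, against 106 and 77.5 CPM. Prc1, the midzone bundling protein, had 133 and 169 CPM, against 155 and 123 CPM. For these 3 genes, with log2 fold changes of -0.05, -0.11 and 0.11, the groups overlapped.

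The proliferation marker Mki67, which coats mitotic chromosomes, had 544 and 595 CPM in responder libraries, against 705 and 462 CPM in non-responder libraries (log2 fold change -0.03, SE 0.25). The responder libraries lay inside the non-responder range, whose ends were 1.53-fold apart. Top2a, the topoisomerase that untangles sister chromatids, had 1053 and 1371 CPM in responder libraries and 1155 and 1090 CPM in non-responder libraries (log2 fold change 0.11, SE 0.23, edgeR adjusted p = 0.95). Here the responder libraries were the outer ones. Top2a alone made up 21.9% of the summed CPM of the group. Without Top2a and Mki67 the sum was 3463 and 3993 CPM in responder libraries and 3722 and 3131 CPM in non-responder libraries, in the same order as with them.

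**Figure D3:**
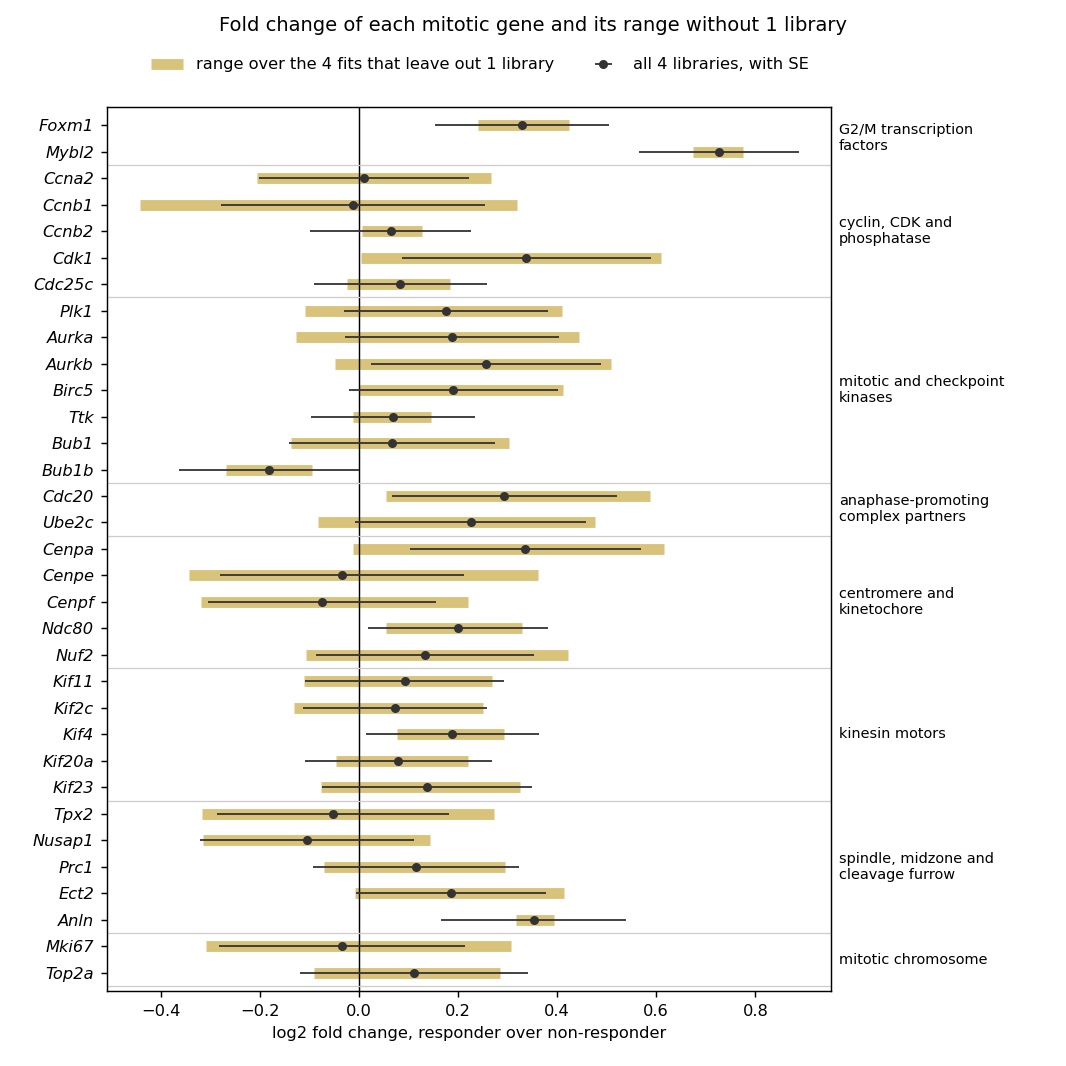
Log2 fold change of each gene (responder over non-responder) with its SE, and as a wide bar the range over the 4 fits that leave out 1 library. The bars of 23 of 33 genes cross 0, while those of Mybl2, Foxm1 and Anln stay at or above 0.24.

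For most of the 33 genes the replicates of a group lay farther apart than the groups. The larger of the differences between the replicates of a group exceeded the difference between groups in 29 of 33 genes, or 87.9%, against 71.6% of all genes tested. The measure takes the larger of the replicate differences, so it favours them, and most of all tested genes show the same. The other 4 of the 33 genes were Mybl2, Foxm1, Anln and Bub1b. Responder replicate 2 was above responder replicate 1 in 29 of 33 genes, with a median log2 ratio of 0.29, while the median over all tested genes was 0.01. Non-responder replicate 2 was above non-responder replicate 1 in 9 of 33, with a median log2 ratio of -0.16, against 0.03 over all tested genes. Responder replicate 2 held the highest value of 24 genes and the lowest of 0. Non-responder replicate 2 held the highest value of 0 genes and the lowest of 18.

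The genes did not move as a block between replicates. Between the non-responder libraries, Cenpe, Mki67, Tpx2, Cenpf and Nuf2 were 1.43-fold to 1.62-fold higher in replicate 1, whereas Cdc20, Cdk1 and Aurkb were 1.46-fold, 1.35-fold and 1.29-fold higher in replicate 2. Between the responder libraries, Ccnb1, Cenpa and Cdk1 were 1.70-fold, 1.55-fold and 1.52-fold higher in replicate 2, while Cenpe, Ccna2, Bub1 and Anln were slightly higher in replicate 1. Library quality measures also differed: mitochondrially encoded genes took 3.27% and 4.22% of reads in responder libraries, against 5.61% and 3.07% in non-responder libraries, with total counts of 20458601 and 18447041 in responder and 21754063 and 21670040 in non-responder libraries. Across the 33 genes, Spearman's rho between exon length and the log2 ratio of non-responder replicate 1 to replicate 2 was 0.38, and 0.18 across all 13792 tested genes. For the log2 ratio of responder replicate 1 to replicate 2 it was 0.20 across the 33 genes and 0.26 across all tested genes. These genes share libraries and are not independent replicates. The part of library quality in the replicate differences was not tested.

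**Figure D4:**
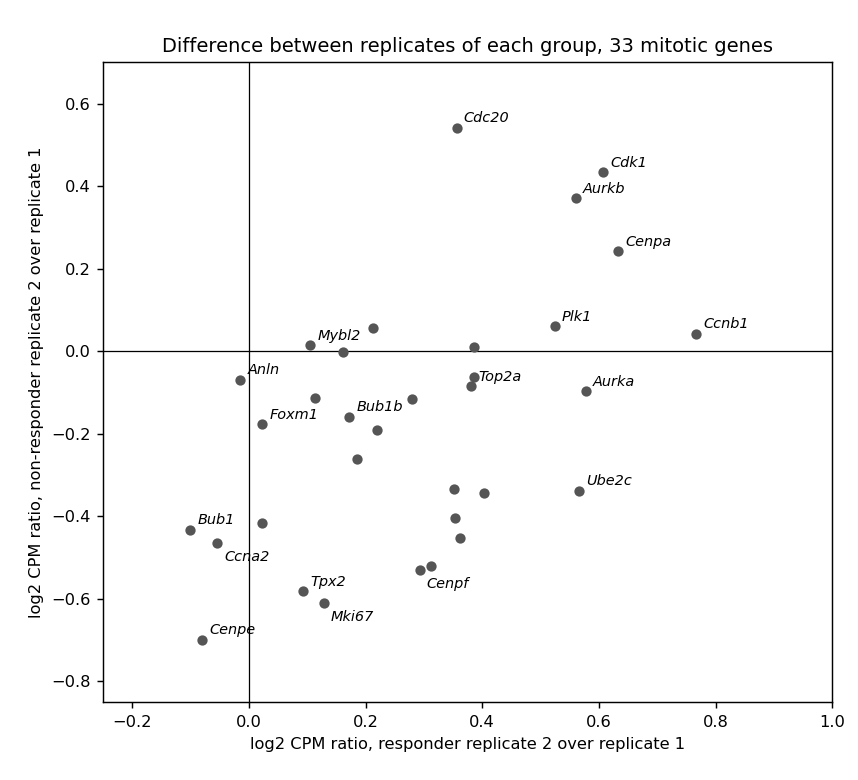
Log2 ratio of CPM in replicate 2 over replicate 1, for responder libraries (horizontal) and non-responder libraries (vertical), with 1 point per gene. Points lie right of 0 for 29 of 33 genes and below 0 for 24, with Cdc20, Cdk1 and Aurkb at upper right and Cenpe, Mki67 and Tpx2 at the bottom.

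Compared per base of exon, the genes were expressed over a wide range. In TPM, which scales counts by exon length and then to a fixed total per library, the mean over the 4 libraries had a median of 82.2 TPM across the 33 genes. Top2a was highest at 477 TPM, with 435 and 552 TPM in responder libraries and 454 and 467 TPM in non-responder libraries. Next came Tpx2 (216 TPM), Mki67 (210 TPM) and Ccna2 (196 TPM), whose library values overlap one another. Ccnb1 was lowest at 19.6 TPM, below its relative Ccnb2 at 161 TPM. The length used covers all annotated exons of a gene and can exceed that of the transcript expressed. It was 4217 bases for Ccnb1 and 1531 bases for Ccnb2. In CPM, which takes no account of length, their means were closer, at 22.5 and 67.1 CPM. Ccnb1 has 3 processed pseudogenes elsewhere that are 97.29% to 99.22% identical over at least 1287 bases, and reads that fit several of these places equally well are not in its count. No other gene of the group besides Mybl2 had a copy elsewhere at 97% identity over 300 bases. Gm3320, the copy of Mybl2, had no position or counts here, so that it lies elsewhere was not checked.

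Other genes of G2 and mitosis had differences of like size. Of 78 further genes, all tested, 65 were higher and 13 lower in responder cells at a median log2 fold change of 0.11, and 0 passed edgeR's adjusted threshold. The groups did not overlap for 17 of them, all with responder libraries above, where 18.8% of all tested genes had responder libraries above and 36.5% did not overlap in either direction. At an unadjusted p under 0.05 there was 1, Wee1, the kinase that restrains Cdk1, with 54.4 and 64.3 CPM in responder libraries and 40.5 and 44.8 CPM in non-responder libraries (log2 fold change 0.48, SE 0.17, edgeR adjusted p = 0.746). The next by p were Nsl1 of the kinetochore (log2 fold change 0.45), Troap (0.49) and the separase gene Espl1 (0.45). Those of smallest p on the lower side were Ckap2l (-0.16), Depdc1a (-0.24), G2e3 (-0.09) and Mad2l1 (-0.14), and in each the groups overlapped. Without responder replicate 2 the median was -0.0009, with 39 of 78 higher, and without non-responder replicate 2 it was 0.02, with 43 of 78 higher.

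Genes of S phase, the step before G2, were also described. All 40 listed genes of DNA replication had log2 fold changes above 0, with a median of 0.41, and responder libraries were above non-responder libraries in 36 of them, where 18.8% of all tested genes were. The median stayed between 0.32 and 0.43 when any 1 library was left out. None passed edgeR's adjusted threshold, and 15 of 40 had an unadjusted p under 0.05, where 2.57% of all tested genes had one and were higher. Those of smallest p were Chek1 (log2 fold change 0.63), Mcm5 (0.58), Mcm10 (0.55) and Cdc6 (0.53), with edgeR adjusted p of 0.631 to 0.69. The difference between the lists of S phase and of mitosis was not tested, and the lists share their libraries.

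**Figure D5:**
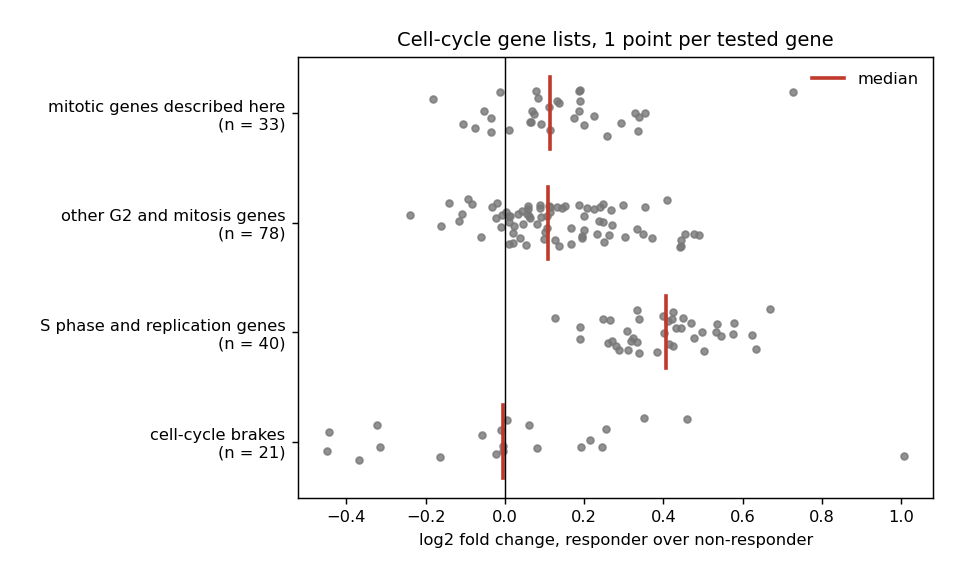
Log2 fold change (responder over non-responder) of each tested gene in 4 lists, with the median of each list as a red line. Medians are 0.11 for the 33 mitotic genes and for 78 other G2 and mitosis genes, 0.41 for 40 S phase genes and close to 0 for 21 cell-cycle brakes, and Mybl2 is the point farthest right among the mitotic genes.

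Other cells that could bring mitotic RNA into the sort were looked for by their markers. The labels say that CD45+ immune cells were sorted apart from the tumor cells. Summed over 14 markers of T and NK cells, expression was 0.45 and 1.62 CPM in responder libraries, against 1.11 and 4.13 CPM in non-responder libraries. Of these 14 markers, 10 and 5 were at 0 in responder replicates 1 and 2, against 9 and 0 in non-responder replicates 1 and 2. Pan-leukocyte markers (14) summed to 24.04 and 67.4 CPM in responder libraries and 68.2 and 165 CPM in non-responder libraries, and macrophage and monocyte markers (13) to 19.8 and 121 CPM and to 133 and 338 CPM. Every tested leukocyte and macrophage marker was lower in responder cells on average, though Cd68 by very little (log2 fold change -0.03). Within each group replicate 2 had the higher sums. It also had the higher value of each tested marker, except Cd68 in responder libraries (9.47 and 9.21 CPM in replicates 1 and 2). Fibroblast markers (12) summed to 8615 and 7425 CPM in responder libraries and 9991 and 16277 CPM in non-responder libraries. Col3a1 made up most of these sums, at 6897 and 5792 CPM in responder and 7597 and 13392 CPM in non-responder libraries. The list was uneven. Thy1 had 0.10 and 0.21 CPM in responder libraries, against 0.145 and 0.81 CPM in non-responder libraries. Mfap5 had 0.89 and 0.73 CPM, against 0.72 and 1.03 CPM. Markers under 1 CPM numbered 2 of 12 in each library but non-responder replicate 2, which had 1. The median fibroblast marker was at 72.0 and 24.6 CPM, against 99.6 and 79.9 CPM. Of 11 tested, 10 were lower in responder cells and Col1a2 was higher. Endothelial markers (8) summed to 14.6 and 18.1 CPM in responder libraries and 25.7 and 29.6 CPM in non-responder libraries. Of 3 tested, Pecam1 was lower in responder cells, and 2, Cdh5 and Egfl7, were higher. Markers of colon epithelium (10, among them Epcam, Krt8, Krt18 and Cdx2) summed to 4.06 and 3.87 CPM in responder libraries and 2.37 and 4.80 CPM in non-responder libraries, so the defining epithelial transcripts of a colon line were near 0. The part of other cells in the differences between libraries was not tested. Whether the tumor cells themselves made the transcripts of the fibroblast list was not tested either.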

How the data were processed

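Polyadenylated RNA of sorted MC38 tumor cells was sequenced in 4 libraries, 2 responder and 2 non-responder, grouped by sample title. Libraries were made with a stranded KAPA mRNA kit, per the labels' protocols. Reads were aligned with STAR to mm10 (GRCm38), per the submitters' processing notes; the version of STAR is not given in the sources used here. The deposited values are raw counts per gene from featureCounts 1.6.1, reverse-stranded (setting 2), on Ensembl release 91, per the file headers. The command did not ask for multi-mapping reads. Total counts were 18447041 to 21754063. Intervals and SEs cover the spread of these libraries only.

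Symbols were matched through a gene name table (53274 of 53379 identifiers). Genes were filtered with filterByExpr (minimum count 10), scaled by TMM (factors 0.952 to 1.035) and tested with edgeR 4.0.16 in R 4.3.3 (robust quasi-likelihood, group as the only term, Benjamini-Hochberg over 13792 genes, threshold 0.05). The procedure was tested on simulated data. The SE is the log2 fold change over the square root of F. TPM used exon lengths from the files. Copies were searched with BLAST 2.17.0 against GENCODE transcripts (97% identity, 300 bases), and promoters came from RefSeq (GRCm38.p6). CCAAT spacing and distance to the start were examined after the matches were seen.

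The genes and lists were chosen with earlier results of these data known, so no list was tested. All 33 genes were to be named, with library values for the smallest p in each role and for groups that did not overlap, which here were given for all 33; from the other lists, the text names up to 4 genes per direction, ranked by p, among those averaging 5 CPM or more. Alternatives were RLE and upper-quartile factors, library size alone, DESeq2 1.42.0, no filter, at least 5 CPM in 2 libraries, the replicate number as a block, and each library left out.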

Additional observations from a re-analysis of the deposited data

How the results depend on the processing

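Over all genes, 0 passed with edgeR under TMM, RLE or upper-quartile factors, library size alone or the stricter filter. There were 62 with DESeq2, 212 without a filter, 32 with the replicate number as a block, and 41 to 516 with 1 library left out. The cause was not tested; a fit with 1 library fewer leaves a lone library assumed to vary like the other group. With all libraries, 856 genes had an unadjusted p under 0.05 in edgeR, and 736 in DESeq2. The edgeR number rose to 1724 under the block and to 1814 of 29612 genes without a filter. It was 646 to 863 under the other settings that keep all libraries. Mybl2 was the only gene of the 33 past the threshold in any fit, without a filter (adjusted p = 0.0411) and without non-responder replicate 2 (adjusted p = 0.038), so that count was 0 to 1 with 1 library left out and 1 without a filter. Same-numbered libraries deviated together (r = 0.386 across genes, 2 pairs), but the labels give the numbers no shared source; under the block 0 of the 33 passed.

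With 1 library left out, the median log2 fold change of the 33 genes was -0.02 to 0.28, with 13 to 31 higher. For the other G2 and mitosis genes it was -0.0009 to 0.26, with 39 to 72 higher and 0 to 1 past the threshold. S phase genes had 0.32 to 0.43, with 39 to 40 higher and 0 to 2 past the threshold, and cell-cycle brakes -0.11 to 0.10, with 9 to 15 higher and 0 to 1 past it. The median of the brakes was -0.0045, 0.0215 with library size alone (14 of 21 higher in place of 10) and 0.0047 under the block, and 1 passed without a filter. Under the settings that keep all libraries, 3 of the 33 genes turned sign: Ccnb1 (0.0249), Cenpe (0.0071) and Mki67 (0.0081) with library size alone, and Cenpe (0.0058) under the block. Of the 33, 10 kept their sign in every fit and 23 turned with a library left out. With 1 library left out, log2 fold changes ran, lowest to highest, over Ccna2 -0.20 to 0.27, Ccnb1 -0.44 to 0.32, Cdc25c -0.024 to 0.18, Plk1 -0.11 to 0.41, Aurka -0.13 to 0.44 and Aurkb -0.048 to 0.51. Likewise they covered Ttk -0.012 to 0.14, Bub1 -0.14 to 0.30, Ube2c -0.083 to 0.48, Cenpa -0.013 to 0.62, Cenpe -0.34 to 0.36 and Cenpf -0.32 to 0.22. Further ranges were Nuf2 -0.11 to 0.42, Kif11 -0.11 to 0.27, Kif2c -0.13 to 0.25, Kif20a -0.046 to 0.22, Kif23 -0.077 to 0.32 and Tpx2 -0.32 to 0.27. The last ranges were Nusap1 -0.32 to 0.14, Prc1 -0.070 to 0.30, Ect2 -0.0085 to 0.41, Mki67 -0.31 to 0.31 and Top2a -0.090 to 0.28. Each of the 33 genes had at least 334 reads in every library.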

Other observations

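Genes listed as holding back the cell cycle went both ways. Of 22 listed brakes, 21 were tested, 10 were higher and 11 lower in responder cells, and 0 passed edgeR's adjusted threshold. Without overlap between groups, 5 of the 21 had responder libraries above and 5 had them below. The list includes Lin9, Lin37, Lin52 and Lin54 of the MuvB complex, described above as activating with B-MYB, so not every member is a brake alone. Lin9 was among those above and Lin52 among those below. Among all tested genes the shares with responder libraries above and below were 18.8% and 17.8%. Cdkn1b, which encodes the CDK inhibitor p27, had 96.2 and 84.8 CPM in responder libraries, against 135 and 112 CPM in non-responder libraries (log2 fold change -0.45, SE 0.18, edgeR adjusted p = 0.779). The CDK4/6 inhibitor gene Cdkn2b and pocket protein genes Rb1 and Rbl2, which repress E2F targets, had log2 fold changes of -0.37, -0.32 and -0.32. In each, both responder libraries were below, but for Rbl2 only barely. Its higher responder value was 63.64 CPM and its lower non-responder value 63.69 CPM. On the higher side, the anti-proliferative gene Btg2 had 15.6 and 28.6 CPM in responder libraries, against 10.9 and 11.0 CPM in non-responder libraries (log2 fold change 1.007, SE 0.30, edgeR adjusted p = 0.668). The E2F repressor gene E2f7 had 39.2 and 43.98 CPM, against 32.7 and 27.7 CPM (log2 fold change 0.46). Gadd45a and Trp53 had log2 fold changes of 0.35 and 0.25, and the groups of Gadd45a overlapped.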
